A study of Mus musculus with 11 samples.

Results

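The mitotic spindle, checkpoint and condensin genes are 45 genes that act from the entry into mitosis to the final separation of the daughter cells. They were taken by mouse symbol from a list of named genes, by a rule that used no value of theirs although earlier results of these data were known when the list was made, and matched to the Ensembl identifiers of the count table. All 45 were found among the 51912 genes of the table, and all 45 were among the 15703 genes with enough reads to be tested. They comprise 7 genes of mitosis entry, 7 of the spindle checkpoint and the anaphase-promoting complex, 4 of the chromosomal passenger complex, 7 of the centromere and kinetochore, 8 of spindle assembly, 7 of the central spindle and cytokinesis, and 5 of condensin and topoisomerase II.

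Gene expression was measured by RNA-seq in 11 samples of lineage-negative C57BL/6 mouse bone marrow, the fraction of marrow cells without surface markers of mature blood cells, to compare the orders in which 2 leukemia mutations can be acquired. CSF3R encodes the receptor for granulocyte colony-stimulating factor, and its T618I allele signals without ligand. CEBPA encodes a transcription factor needed for neutrophil development, and V314VW is a C-terminal CEBPA mutation. All 3 groups carried a constitutive retroviral vector with a GFP tag and a second, red fluorescent vector whose oncogene is expressed only after Cre recombination. CSF3R-only (n = 4, replicates A to D) had CSF3R T618I in the constitutive vector and an empty inducible vector. CSF3R-first (n = 3, A to C) had CSF3R T618I in the constitutive vector and CEBPA V314VW in the inducible vector. CEBPA-first (n = 4, A to D) had CEBPA V314VW in the constitutive vector and CSF3R T618I in the inducible vector. Sorted GFP and red double-positive cells of every group, the CSF3R-only control included, were kept for 48 h with 4-hydroxytamoxifen, which activates the Cre, in medium without cytokines. The study's methods give donors of 6 to 12 weeks of age, and for this system they used marrow of mice with a tamoxifen-activated Cre at the Rosa locus, while the labels give the strain only as C57BL/6. CSF3R T618I was thus present in every group, and no group without it, or without 4-hydroxytamoxifen, was measured here. Oncogenes came from retroviral vectors and not from the mouse genes' own promoters. The labels give replicates as letters and do not say whether these were separate mice, so that p-values measure the spread between these samples, which may be technical.

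Entry into mitosis is driven by the kinase CDK1 bound to cyclin A or cyclin B. Condensin and topoisomerase II then compact and untangle the chromosomes, kinetochores attach them to spindle microtubules, and the spindle checkpoint holds back the anaphase-promoting complex (APC/C) until every chromosome is attached. After anaphase the central spindle directs RhoA and the contractile ring to the cell's equator. In marrow, dividing progenitors express these genes, and the genes are shut off as neutrophils mature and stop dividing. Many of these genes are transcribed in G2 and mitosis through a promoter element of the letters TTTGAA, the cell cycle genes homology region (CHR), which is bound by the DREAM and MuvB complexes, often together with CCAAT boxes bound by NF-Y.

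7 promoters are shown to let the genes at the extremes of the results be compared with CDK1's own gene. Ect2 and Anln had the largest rises, Cdc25b was the only member that fell, Ccnb2, Cenpa and Nusap1 were nearly level between CSF3R-first and CEBPA-first, and Cdk1 encodes the central kinase. Each runs 5′ to 3′ from 250 bases before to 50 bases after the RefSeq transcript start (build GRCm38.p6), 300 bases in all. Capitals mark TTTGAA or its reverse complement TTCAAA, and CCAAT or its reverse complement ATTGG.
Ect2, chr3:27153829-27154128, minus strand: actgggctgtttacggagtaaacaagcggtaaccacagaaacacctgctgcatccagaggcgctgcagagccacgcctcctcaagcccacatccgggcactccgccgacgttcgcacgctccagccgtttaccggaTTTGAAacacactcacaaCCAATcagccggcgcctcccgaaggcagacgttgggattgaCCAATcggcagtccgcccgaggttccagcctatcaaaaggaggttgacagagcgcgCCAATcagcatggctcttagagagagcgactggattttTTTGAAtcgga
Anln, chr9:22389157-22389456, minus strand: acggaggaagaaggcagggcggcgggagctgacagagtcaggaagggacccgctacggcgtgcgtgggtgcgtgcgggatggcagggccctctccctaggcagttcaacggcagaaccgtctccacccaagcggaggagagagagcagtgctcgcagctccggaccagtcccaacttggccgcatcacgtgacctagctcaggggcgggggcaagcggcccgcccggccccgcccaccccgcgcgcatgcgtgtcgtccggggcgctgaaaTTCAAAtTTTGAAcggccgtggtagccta
Cdc25b, chr2:131186698-131186997, plus strand: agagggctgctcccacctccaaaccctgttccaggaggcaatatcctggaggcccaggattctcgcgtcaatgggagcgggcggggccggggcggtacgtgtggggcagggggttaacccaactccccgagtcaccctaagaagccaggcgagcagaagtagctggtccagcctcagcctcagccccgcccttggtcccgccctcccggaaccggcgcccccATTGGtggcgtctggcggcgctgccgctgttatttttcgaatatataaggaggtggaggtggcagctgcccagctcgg
Ccnb2, chr9:70421505-70421804, minus strand: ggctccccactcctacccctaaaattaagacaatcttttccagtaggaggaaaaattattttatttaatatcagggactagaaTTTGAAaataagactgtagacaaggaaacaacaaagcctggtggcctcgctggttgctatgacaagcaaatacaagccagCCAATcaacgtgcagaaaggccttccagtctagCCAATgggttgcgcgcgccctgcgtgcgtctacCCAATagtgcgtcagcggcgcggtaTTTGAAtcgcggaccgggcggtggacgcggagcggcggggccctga
Cenpa, chr5:30666636-30666935, plus strand: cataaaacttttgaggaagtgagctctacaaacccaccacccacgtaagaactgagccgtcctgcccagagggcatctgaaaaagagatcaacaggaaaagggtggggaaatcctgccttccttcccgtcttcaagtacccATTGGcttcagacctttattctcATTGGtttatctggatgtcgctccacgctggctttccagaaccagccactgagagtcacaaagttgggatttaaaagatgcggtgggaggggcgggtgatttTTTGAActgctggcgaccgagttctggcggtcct
Nusap1, chr2:119618048-119618347, plus strand: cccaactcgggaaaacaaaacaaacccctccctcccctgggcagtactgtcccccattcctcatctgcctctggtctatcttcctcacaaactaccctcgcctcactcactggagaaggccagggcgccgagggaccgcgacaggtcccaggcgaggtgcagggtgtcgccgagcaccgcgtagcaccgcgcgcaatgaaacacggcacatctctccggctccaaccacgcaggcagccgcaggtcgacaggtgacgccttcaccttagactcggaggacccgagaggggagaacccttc
Cdk1, chr10:69352863-69353162, minus strand: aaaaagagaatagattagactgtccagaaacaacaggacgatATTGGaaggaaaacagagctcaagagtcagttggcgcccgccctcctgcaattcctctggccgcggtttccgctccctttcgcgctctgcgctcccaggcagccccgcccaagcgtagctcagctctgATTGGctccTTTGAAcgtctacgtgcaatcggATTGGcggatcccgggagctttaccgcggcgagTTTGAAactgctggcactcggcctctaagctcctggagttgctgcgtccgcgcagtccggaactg

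Ect2 held TTTGAA at -114 and 39, counted with the transcript's first base as 0, and CCAAT words at -96, -55 and 1. RefSeq has another start for Ect2, from which the TTTGAA words lie at -138 and 15 and the CCAAT words at -120, -79 and -23. Cdk1 held TTTGAA at -71 and -15 and CCAAT words at -208, -80 and -48. Anln held its 2 CHR words close together, at 21 and 28, and no CCAAT. Ccnb2 had both words, so did Cenpa, and Nusap1 had neither. Cdc25b held a single CCAAT word at -28 and no TTTGAA. The latter was also missing from the windows of the rising members Ccnb1, Bub1, Mad2l1, Birc5, Cenpe, Nuf2 and Nusap1, which says only that these letters are not there.

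RefSeq promoters were matched by symbol for 37 of the 45 members, giving 40 windows. Ccna2, Cdc25c, Aurkb, Incenp, Kif20a, Spc24, Tpx2 and Smc4 were not matched. TTTGAA, searched on both strands, lay in 32 of the 40 windows, or 80%, compared with 16% of all 21263 windows of protein-coding genes. None of the words contains another. CCAAT, also searched on both strands, lay in 77.5% of the members' windows against 38.2% of all windows. Both words stood together in 67.5% of the members' windows and in 6.38% of all windows. Words of the E2F site (TTTCCCGC, TTTGGCGC, TTTCGCGC or TTTGCCGC), searched on both strands, lay in 10% of the members' windows and in 2.85% of all windows. In 36 windows of 31 of the 36 DNA replication genes, 11.1% held TTTGAA, 55.6% CCAAT and 38.9% an E2F word. In 109 windows of 96 of the 113 other mitotic genes, 35.8% held TTTGAA, 59.6% CCAAT and 9.17% an E2F word. These shares are descriptions of the letters, and the matches are not sites of measured binding.

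Sequencing was deep and alike between groups, with 47905747 to 72268346 counts per sample, so that each member had between 844 and 54719 counts in each sample. Ribosomal protein genes took 0.957% to 1.19% of the counts of CSF3R-only samples, 1.32% to 1.53% of CSF3R-first samples and 1.57% to 1.80% of CEBPA-first samples, so this share moved with the groups, and its part in the results was not tested. The mitochondrial share was 0.414% to 0.515% in CSF3R-only, 0.461% to 0.543% with CSF3R-first and 0.203% to 0.511% with CEBPA-first, where A, B and C lay below all samples of the other groups, and its part was not tested either. Values below are CPM (counts scaled by library size) after trimmed mean of M values (TMM) scaling, and a gene was called changed at a Benjamini-Hochberg adjusted p under 0.05 in edgeR's quasi-likelihood test across all tested genes.

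Mitotic genes moved nearly as a block, lowest in CSF3R-only and highest in CEBPA-first. In CEBPA-first against CSF3R-only, 44 of the 45 members were called higher and 1, Cdc25b, lower, where 35.4% of all tested genes were called higher and 36.6% lower. The members' median log2 fold change was 0.71 (1.63-fold), with a range of -0.96 to 1.64, beside a median of -0.0045 over all tested genes. In CSF3R-first against CSF3R-only, again 44 members were called higher and Cdc25b lower, against 21.6% higher and 21.1% lower of all tested genes. The median there was 0.47 (1.38-fold), ranging from -0.26 to 0.74, beside -0.022 over all tested genes. Both comparisons use the same CSF3R-only samples. The rises were modest in size. At the study's threshold of an absolute log2 fold change over 1, only Ect2 and Anln were called in CEBPA-first against CSF3R-only, both higher. Of the 15703 tested genes, 1268 were called higher there by that much and 2976 lower, together 27.0%. No member was called in CSF3R-first against CSF3R-only, where 334 tested genes were called higher and 711 lower, together 6.65%.

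The CSF3R-only samples hardly overlapped with either other group. Every CEBPA-first sample lay above every CSF3R-only sample in 44 of 45 members, beside 34.2% of all tested genes, and every CSF3R-first sample did so in 43 members, beside 20.7%. Cdc25b lay the other way in both comparisons, and Ccnb2 overlapped between CSF3R-first and CSF3R-only. Averaged over the members, log2 CPM was 6.57 to 6.76 in the CSF3R-only samples, 7.03 to 7.22 in the CSF3R-first samples and 7.30 to 7.40 in the CEBPA-first samples. In bulk RNA a larger share of dividing cells and more mitotic RNA per dividing cell cannot be told apart.

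**Figure D1:**
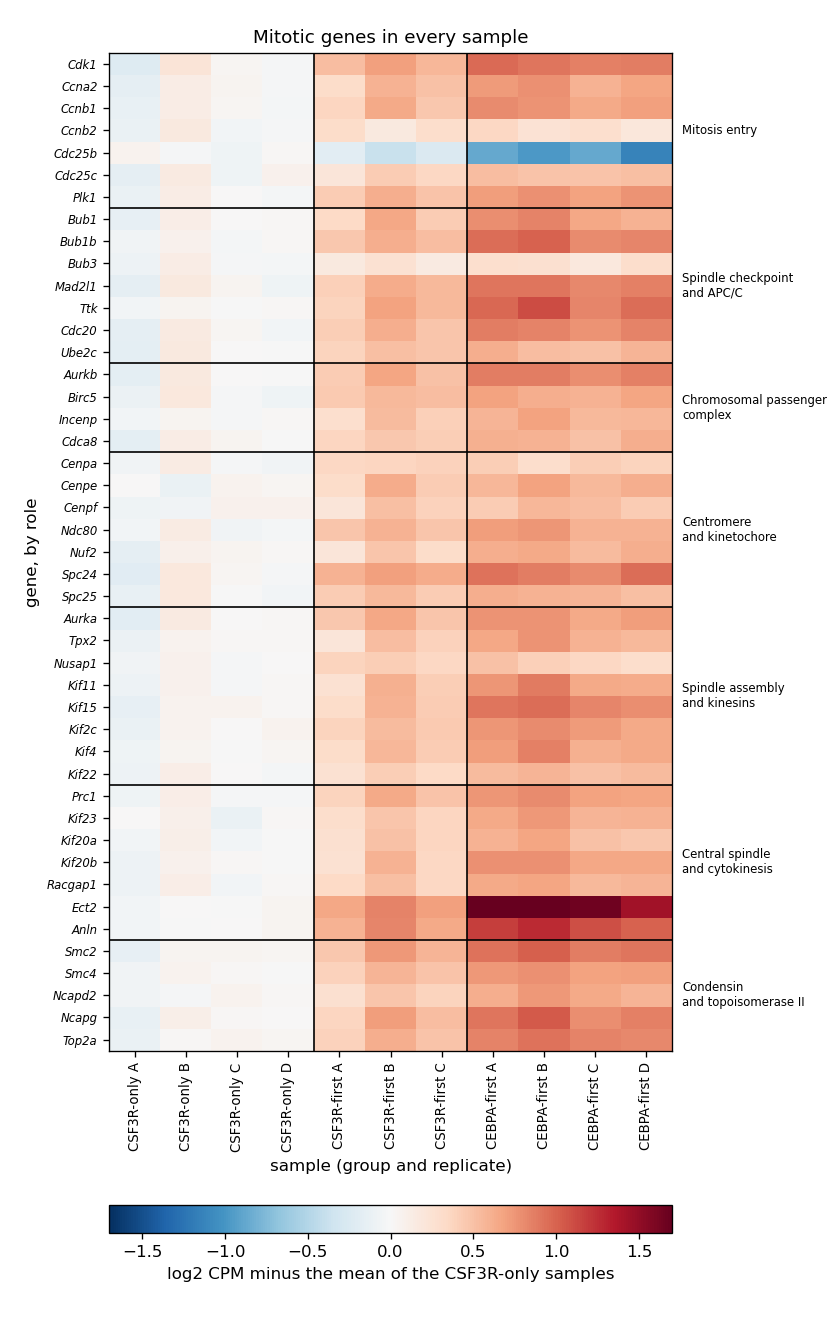
Log2 CPM of the 45 members (rows, by role) in the 11 samples (columns, by group and replicate), minus the mean of the 4 CSF3R-only samples of that gene; red is higher and blue lower. Rows turn red in CSF3R-first and CEBPA-first except Cdc25b, which turns blue, and the Ect2 row is the darkest in CEBPA-first.

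**Figure D2:**
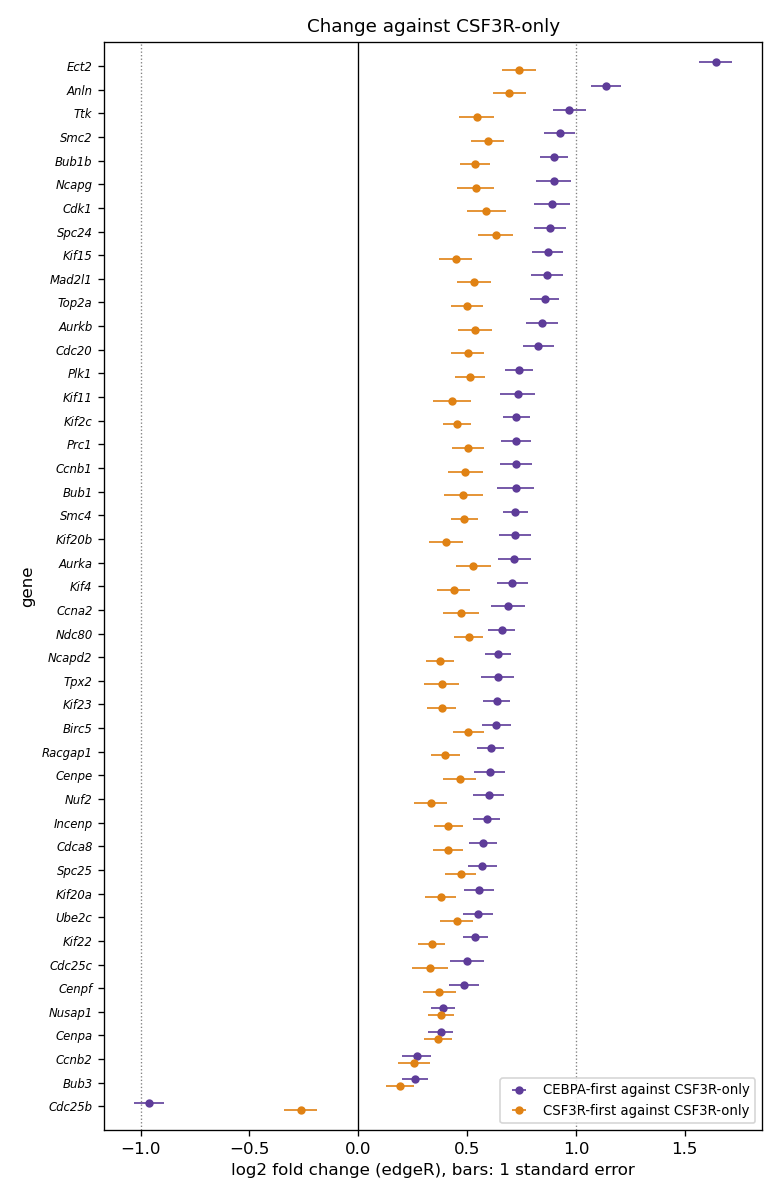
Log2 fold change against CSF3R-only of each member in CEBPA-first (purple) and CSF3R-first (orange), with bars of 1 standard error and dotted lines at an absolute log2 fold change of 1. The median is 0.71 in CEBPA-first and 0.47 in CSF3R-first, and Cdc25b is the only member below 0.

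Genes of mitosis entry rose apart from Cdc25b. Of the 7 genes, 6 were called higher in both CEBPA-first and CSF3R-first against CSF3R-only. Cdk1, the kinase that starts mitosis, was at 103, 139.9, 122 and 118 CPM in CSF3R-only A to D, 172, 195 and 178 CPM in CSF3R-first A to C, and 234, 225, 217 and 219 CPM in CEBPA-first A to D. The 3 groups did not overlap, and CEBPA-first was the highest. Its log2 fold change was 0.89 ± 0.08 (SE) in CEBPA-first against CSF3R-only (edgeR adjusted p = 7.96e-07) and 0.59 ± 0.09 in CSF3R-first against CSF3R-only (adjusted p = 3.52e-04).

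The partner cyclins moved by unequal amounts. Ccnb1, cyclin B1, was at 161, 192, 180.4 and 172 CPM in CSF3R-only A to D, 228, 276 and 241 CPM in CSF3R-first A to C, and 307, 298, 275 and 286 CPM in CEBPA-first A to D. CEBPA-first D, A and B lay above all CSF3R-first samples, and CEBPA-first C lay just below CSF3R-first B, so that these groups touched. Ccnb1 rose by 0.72 ± 0.08 in CEBPA-first and 0.49 ± 0.08 in CSF3R-first on the log2 scale against CSF3R-only. Ccnb2, cyclin B2, was at 126, 153, 132 and 135 CPM in CSF3R-only A to D, 168, 152 and 167 CPM in CSF3R-first A to C, and 174, 161, 166 and 156 CPM in CEBPA-first A to D. CSF3R-only B reached the level of CSF3R-first B, and CSF3R-first and CEBPA-first overlapped. Its log2 fold change was 0.27 ± 0.07 in CEBPA-first (adjusted p = 0.00319) and 0.26 ± 0.07 in CSF3R-first (adjusted p = 0.0141) against CSF3R-only. The ratio of Ccnb1 to Ccnb2 counts, which needs no scaling between samples, was 1.28, 1.26, 1.37 and 1.28 in CSF3R-only A to D, 1.35, 1.81 and 1.44 in CSF3R-first A to C, and 1.76, 1.85, 1.66 and 1.84 in CEBPA-first A to D. The CEBPA-first samples were the highest with CSF3R-first B among them, and CSF3R-first A lay within the CSF3R-only range. This ratio was chosen after its values were seen and was not tested. Near-identical stretches in other genes, among them the pseudogene Ccnb1-ps, cover 51.9% of the Ccnb1 transcript, so its level is uncertain. Ccna2, cyclin A2, rose by 0.69 ± 0.08 in CEBPA-first and 0.47 ± 0.08 in CSF3R-first, and 17.3% of its transcript is shared with Exosc9 on the opposite strand, where the use of strand in counting is not given.

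The CDC25 phosphatases, which remove the inhibitory phosphates from CDK1, went in opposite directions. Cdc25b was at 124, 117, 113 and 121 CPM in CSF3R-only A to D, 105, 91.6 and 100.2 CPM in CSF3R-first A to C, and 64.7, 60.4, 65 and 54.1 CPM in CEBPA-first A to D. The 3 groups did not overlap, and CEBPA-first was the lowest. Cdc25b fell by 0.96 on the log2 scale in CEBPA-first against CSF3R-only (SE 0.07, adjusted p = 8.67e-08). In CSF3R-first against CSF3R-only the log2 fold change was -0.26 ± 0.07 (adjusted p = 0.0124), and this call was lost without CSF3R-first B (-0.21, adjusted p = 0.068) and with no filter on low counts (-0.22, adjusted p = 0.051). Cdc25c was at 18.2, 22.5, 19.3 and 21.3 CPM in CSF3R-only A to D, 23.3, 27.5 and 25.9 CPM in CSF3R-first A to C, and 29.3, 28.4, 28.3 and 29 CPM in CEBPA-first A to D. It was expressed at a low level, with no overlap between groups, and its log2 fold change was 0.50 ± 0.08 in CEBPA-first and 0.33 ± 0.08 in CSF3R-first. The ratio of Cdc25c to Cdc25b counts was 0.15, 0.19, 0.17 and 0.18 in CSF3R-only A to D, 0.22, 0.30 and 0.26 in CSF3R-first A to C, and 0.45, 0.47, 0.44 and 0.54 in CEBPA-first A to D. It rose in the order of the groups with no overlap; it too was chosen after its values were seen, and 23.7% of the Cdc25c transcript is shared with Gm3550 on the opposite strand. Plk1, the polo-like kinase that activates CDC25 and acts at centrosomes and kinetochores, rose by 0.74 ± 0.06 in CEBPA-first and 0.51 ± 0.07 in CSF3R-first.

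**Figure D3:**
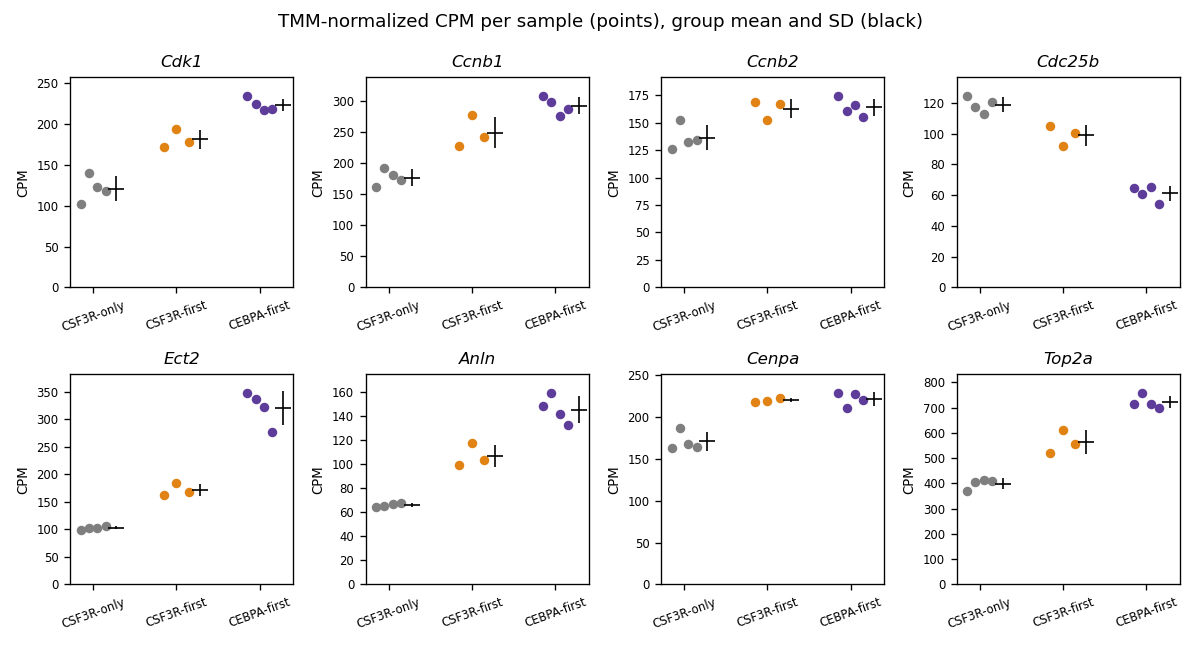
TMM-normalized CPM of 8 members in each sample (points), with the group mean and SD in black (4 CSF3R-only, 3 CSF3R-first and 4 CEBPA-first samples); every axis starts at 0. Ect2 separates furthest, Cdc25b goes down, and Ccnb2 and Cenpa are level between CSF3R-first and CEBPA-first.

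All 7 genes of the spindle checkpoint and APC/C were called higher in both comparisons with CSF3R-only, with a median log2 fold change of 0.83 in CEBPA-first and 0.50 in CSF3R-first. Ttk, the kinase MPS1 that starts checkpoint signalling, was at 24.6, 26.3, 25.3 and 25.9 CPM in CSF3R-only A to D, 33.1, 41 and 37.5 CPM in CSF3R-first A to C, and 50.3, 54.9, 45.6 and 49.2 CPM in CEBPA-first A to D. CSF3R-only was narrow, and the 3 groups were apart. Ttk rose by 0.97 ± 0.08 in CEBPA-first (adjusted p = 1.72e-07) and 0.54 ± 0.08 in CSF3R-first (adjusted p = 3.21e-04). Cdc20, the APC/C activator that the checkpoint holds back, was at 134, 166, 153 and 145 CPM in CSF3R-only A to D, 200.04, 228 and 207 CPM in CSF3R-first A to C, and 273, 267, 254 and 266 CPM in CEBPA-first A to D. Its groups did not overlap, and its log2 fold changes were 0.83 ± 0.07 and 0.50 ± 0.08 in CEBPA-first and CSF3R-first. Bub1b, encoding the checkpoint inhibitor BUBR1, rose by 0.90 ± 0.06 and 0.54 ± 0.07. For Mad2l1, whose product MAD2 binds CDC20, the rises were 0.87 ± 0.07 and 0.53 ± 0.08. Bub1, a kinetochore kinase, rose by 0.72 ± 0.08 and 0.48 ± 0.09.

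Both remaining genes of this group moved less. Ube2c, the ubiquitin-conjugating enzyme of the APC/C, rose by 0.55 ± 0.07 in CEBPA-first and 0.45 ± 0.07 in CSF3R-first, and 25.3% of its transcript is shared with Tnnc2 on the opposite strand. Bub3, a partner of BUB1 and BUBR1, was at 207, 238, 216 and 214 CPM in CSF3R-only A to D, 246, 260.4 and 242 CPM in CSF3R-first A to C, and 267, 263, 248 and 269 CPM in CEBPA-first A to D. The CSF3R-only samples lay below the other samples, CSF3R-only B by the least, while CSF3R-first and CEBPA-first overlapped. Its log2 fold changes of 0.26 ± 0.06 (adjusted p = 0.00154) and 0.19 ± 0.06 (adjusted p = 0.03) were the smallest rises of all members. The Bub3 call in CSF3R-first was lost in 5 of the alternative analyses, for example without CSF3R-first B (0.16, adjusted p = 0.12).

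The 4 genes of the chromosomal passenger complex, which corrects faulty kinetochore attachments and later moves to the central spindle, were all called higher in both comparisons. Aurkb, its kinase Aurora B, was at 97.2, 122, 109.98 and 109 CPM in CSF3R-only A to D, 148, 174 and 154 CPM in CSF3R-first A to C, and 200.04, 200.4, 189 and 197 CPM in CEBPA-first A to D. Its 3 groups did not overlap, and it rose by 0.85 ± 0.07 in CEBPA-first and 0.54 ± 0.08 in CSF3R-first. Birc5, or survivin, rose by 0.63 ± 0.07 and 0.51 ± 0.07. The scaffold Incenp rose by 0.59 ± 0.06 and 0.41 ± 0.07, and Cdca8, encoding borealin, by 0.57 ± 0.06 and 0.41 ± 0.07. The kinase gene thus had a larger point estimate in CEBPA-first than its 3 partners; no test between genes was made.

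Centromere and kinetochore genes, all 7 called higher in both comparisons, had a median log2 fold change of 0.60 in CEBPA-first and 0.47 in CSF3R-first. Cenpa, the histone H3 variant that marks centromeres, was at 163, 187, 168 and 164 CPM in CSF3R-only A to D, 219, 219 and 223 CPM in CSF3R-first A to C, and 228, 211, 228 and 221 CPM in CEBPA-first A to D. CSF3R-first and CEBPA-first were level and overlapped, and both lay above CSF3R-only. Cenpa rose by 0.38 ± 0.06 in CEBPA-first (adjusted p = 6.14e-05) and 0.37 ± 0.06 in CSF3R-first (adjusted p = 7.69e-04). Cenpe, a kinetochore kinesin, rose by 0.60 ± 0.07 and 0.47 ± 0.08. Cenpf, a large kinetochore protein, rose by 0.49 ± 0.07 and 0.37 ± 0.08.

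Ndc80, Nuf2, Spc24 and Spc25 form the rod that holds microtubules at the kinetochore. Spc24 was at 29.9, 39, 35.2 and 33.8 CPM in CSF3R-only A to D, 51.8, 55.6 and 53.2 CPM in CSF3R-first A to C, and 65.1, 62.7, 59.7 and 66.6 CPM in CEBPA-first A to D. Its groups were apart, and CSF3R-only A was the lowest sample. Spc24 rose by 0.88 ± 0.08 in CEBPA-first and 0.63 ± 0.08 in CSF3R-first. Ndc80 rose by 0.66 ± 0.06 and 0.51 ± 0.07, Nuf2 by 0.60 ± 0.07 and 0.33 ± 0.07, and Spc25 by 0.57 ± 0.07 and 0.47 ± 0.07. Per exon length the 4 levels in CEBPA-first were 12.4 ± 0.708 (SD, n = 4), 13.8 ± 0.42, 24.7 ± 1.16 and 26.2 ± 0.846 RPKM (CPM per kilobase) for Ndc80, Nuf2, Spc24 and Spc25. The 2 shorter SPC subunits were higher than Ndc80 and Nuf2 on that scale, which depends on the union of annotated exons used as length.

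The 8 genes of spindle assembly and its kinesins were all called higher in both comparisons, with a median of 0.71 in CEBPA-first and 0.44 in CSF3R-first. Kif15, a kinesin that supports spindle bipolarity, was at 58.9, 67.2, 67.3 and 65.7 CPM in CSF3R-only A to D, 80.4, 97.9 and 87 CPM in CSF3R-first A to C, and 122, 125, 115 and 112 CPM in CEBPA-first A to D. The groups did not overlap, and CEBPA-first was the highest. Kif15 rose by 0.87 ± 0.07 in CEBPA-first and 0.45 ± 0.08 in CSF3R-first, while Kif11, or Eg5, the main motor that pushes spindle poles apart, rose by 0.73 ± 0.08 and 0.43 ± 0.09. Aurka, the centrosome kinase Aurora A, rose by 0.72 ± 0.08 and 0.53 ± 0.08, and its activator Tpx2 by 0.64 ± 0.07 and 0.38 ± 0.08. Nusap1, which bundles spindle microtubules, was at 128, 139.8, 131 and 134 CPM in CSF3R-only A to D, 174, 178 and 169.9 CPM in CSF3R-first A to C, and 188, 176, 170.4 and 165 CPM in CEBPA-first A to D. CSF3R-only was below both other groups, which overlapped. Nusap1 rose by 0.39 ± 0.06 and 0.38 ± 0.06, nearly the same size in CEBPA-first and CSF3R-first.

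The remaining kinesins of this group rose by middling amounts. Kif2c, the microtubule depolymerase MCAK, rose by 0.73 ± 0.06 in CEBPA-first and 0.45 ± 0.06 in CSF3R-first. The chromokinesin Kif4 rose by 0.71 ± 0.07 and 0.44 ± 0.08, with 16.7% of its transcript shared with Pdzd11 on the opposite strand. Kif22, also a chromosome-bound kinesin, rose by 0.54 ± 0.06 and 0.34 ± 0.06.

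Genes of the central spindle and cytokinesis included the 2 largest rises. Ect2, the exchange factor that activates RhoA at the cell equator (ENSMUSG00000027699, chr3:27097222-27153878, minus strand, GRCm38), was at 99, 103, 103 and 106 CPM in CSF3R-only A to D, 163, 184 and 167 CPM in CSF3R-first A to C, and 347, 337, 322 and 277 CPM in CEBPA-first A to D. The 3 groups were far apart, and the spread within CSF3R-only was small. Its mean was 103 ± 2.93 CPM (SD, n = 4) in CSF3R-only, 171 ± 11.6 CPM (n = 3) for CSF3R-first and 321 ± 31.1 CPM (n = 4) for CEBPA-first. Ect2 rose by 1.64 ± 0.08 on the log2 scale in CEBPA-first (adjusted p = 1.99e-09) and by 0.74 ± 0.08 in CSF3R-first (adjusted p = 3.32e-05).

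Racgap1, the subunit of centralspindlin that recruits ECT2, rose by 0.61 ± 0.06 in CEBPA-first and 0.40 ± 0.07 in CSF3R-first. The ratio of Ect2 to Racgap1 counts was 0.85, 0.77, 0.86 and 0.84 in CSF3R-only A to D, 1.03, 1.05 and 1.06 in CSF3R-first A to C, and 1.80, 1.71, 1.78 and 1.49 in CEBPA-first A to D. It was below 1 in every CSF3R-only sample, just above 1 in CSF3R-first and well above in CEBPA-first, and like the other ratios it was chosen after its values were seen. Kif23, the kinesin of centralspindlin, rose by 0.64 ± 0.06 and 0.38 ± 0.07.

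Anln, or anillin, which links RhoA to the contractile ring, was at 64, 65.5, 66.6 and 68.1 CPM in CSF3R-only A to D, 99.6, 118 and 104 CPM in CSF3R-first A to C, and 149, 159, 142 and 132 CPM in CEBPA-first A to D. The groups were apart, and CSF3R-only again had little spread. It rose by 1.14 ± 0.07 in CEBPA-first (adjusted p = 2.16e-08) and 0.69 ± 0.07 in CSF3R-first (adjusted p = 3.31e-05). Prc1, which crosslinks the antiparallel microtubules of the central spindle, rose by 0.73 ± 0.07 and 0.50 ± 0.07. The kinesins Kif20a and Kif20b rose by 0.55 ± 0.07 and 0.72 ± 0.07 in CEBPA-first, and by 0.38 ± 0.07 and 0.40 ± 0.08 in CSF3R-first. Reads of Kif20a may be partly shared, since 34.7% of its transcript is shared with Cdc23 on the opposite strand.

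Condensin and topoisomerase II genes, all 5 called higher in both comparisons, had the highest median of the roles in CEBPA-first, 0.86, and 0.50 in CSF3R-first. Top2a, topoisomerase II alpha, was at 368, 403, 414 and 408 CPM in CSF3R-only A to D, 521, 613 and 556 CPM in CSF3R-first A to C, and 715, 756, 716 and 699 CPM in CEBPA-first A to D. It had the highest CPM of all members, with no overlap between groups. Top2a rose by 0.86 ± 0.07 in CEBPA-first (adjusted p = 1.89e-07) and 0.50 ± 0.07 in CSF3R-first (adjusted p = 2.69e-04). Smc2, an ATPase of both condensins, was at 148, 169, 169 and 168 CPM in CSF3R-only A to D, 225, 272 and 244 CPM in CSF3R-first A to C, and 309, 329, 298 and 307 CPM in CEBPA-first A to D. The groups were apart, and CSF3R-only A lay below its group. Smc2 rose by 0.93 ± 0.07 and 0.59 ± 0.08, and its partner ATPase Smc4 by 0.72 ± 0.06 and 0.49 ± 0.06. Of the condensin I subunits, Ncapg rose by 0.90 ± 0.08 and 0.54 ± 0.09 and Ncapd2 by 0.64 ± 0.06 and 0.37 ± 0.07. Per exon length, Smc2 and Smc4 were nearly equal in CEBPA-first, at 56.7 ± 2.38 and 57.4 ± 1.72 RPKM (SD, n = 4), and Ncapg was lower at 21.3 ± 1.58 RPKM.

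The order of the mutations was compared directly in CEBPA-first against CSF3R-first. Of the 45 members, 30 were called higher, 1 lower and 14 not called, where 24.0% of all tested genes were called higher and 24.3% lower. The median was 0.23 (1.18-fold), with a range of -0.70 to 0.90, beside 0.00052 over all tested genes. No member passed an absolute log2 fold change of 1. Of all tested genes 12.8% were called past it, 404 of them higher and 1612 lower. Every CEBPA-first sample was above every CSF3R-first sample in 32 members, beside 27.4% of all tested genes. The count of 30 depended on single samples of both groups. It was 18 without CSF3R-first A, 20 without CSF3R-first C, 33 without CSF3R-first B and 23 without CEBPA-first A or B, and 24 with only the compared groups in the fit.

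Ect2 differed most between CEBPA-first and CSF3R-first, by 0.90 ± 0.08 (95% interval 0.73 to 1.08, edgeR adjusted p = 3.62e-06). Among the members higher in CEBPA-first, it was followed by Anln at 0.44 ± 0.07, Ttk at 0.43 ± 0.08 and Kif15 at 0.42 ± 0.08. Cdc25b was lower by 0.70 in size (log2 fold change -0.70, 95% interval -0.86 to -0.54, adjusted p = 1.38e-05). By role, 5 of 5 condensin and topoisomerase II genes, 2 of 7 centromere and kinetochore genes (Nuf2 and Spc24), 4 of 7 mitosis entry genes, 5 of 7 checkpoint and APC/C genes, 2 of 4 passenger genes, 6 of 8 spindle assembly genes and 6 of 7 central spindle genes were called higher. The share of all tested genes called higher was 24.0%. No test of a difference between roles was made, and 4 of the members not called, Kif20a, Aurka, Cdca8 and Ndc80, had an unadjusted p under 0.05.

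The 14 members that were not called were Ccnb2, Cdc25c, Bub3, Ube2c, Birc5, Cdca8, Cenpa, Cenpe, Cenpf, Ndc80, Spc25, Aurka, Nusap1 and Kif20a. Their log2 fold changes were between 0.0085 and 0.19, and their 95% intervals together spanned -0.15 to 0.36. A small difference between CEBPA-first and CSF3R-first is thus not excluded for them. Ccnb2, Cenpa and Nusap1 had the smallest differences of all members, with intervals that reach to both sides of 0. Ccnb2 differed by 0.01 (95% interval -0.15 to 0.17), Cenpa by 0.01 (-0.12 to 0.15) and Nusap1 by 0.01 (-0.12 to 0.14).

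**Figure D4:**
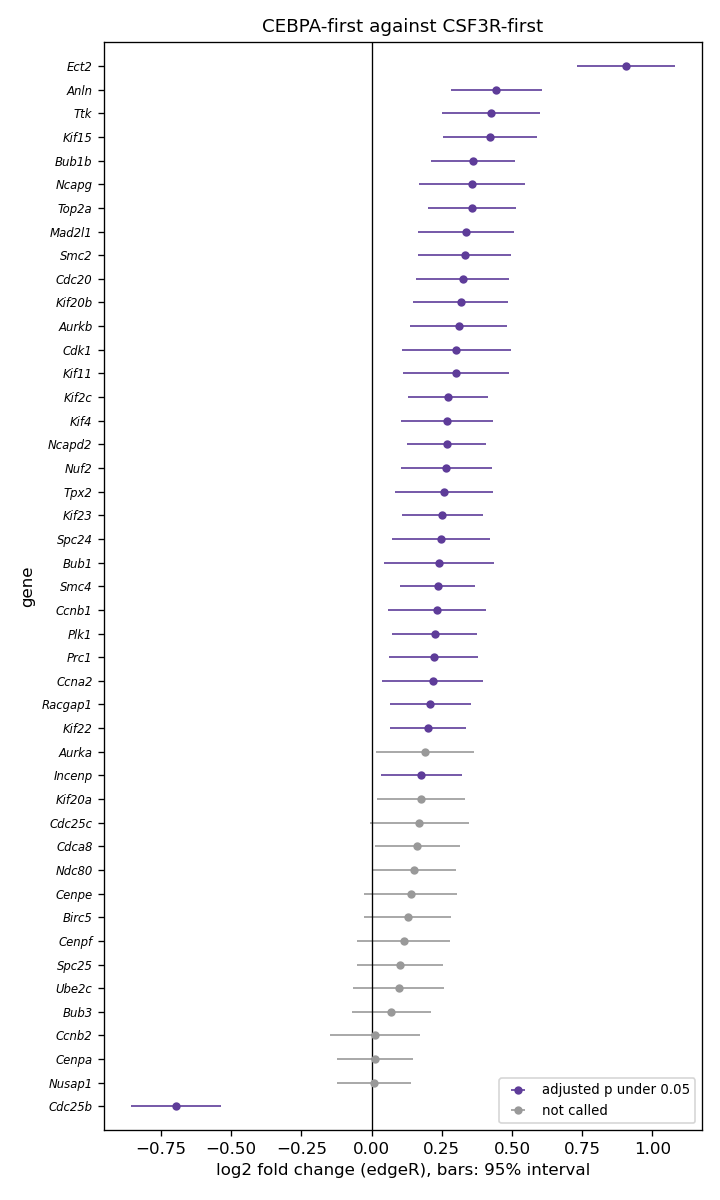
Log2 fold change in CEBPA-first against CSF3R-first of each member, with bars of the 95% interval; purple members had an edgeR adjusted p under 0.05 and grey members did not. Ect2 is at the top with 0.90, Cdc25b at the bottom with -0.70, and Nusap1, Cenpa and Ccnb2 lie at 0.01.

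For 45 of 45 members CSF3R-first had the middle mean of the 3 groups, as it had for 76.1% of all tested genes. For Ccnb2, Cenpa and Nusap1 this rests on differences from CEBPA-first of about 0.01, which turned negative under several settings. On a scale with 0 at the CSF3R-only mean and 1 at the CEBPA-first mean, the mean over members put CSF3R-first at 0.663 ± 0.146 (SD, n = 3), with replicate A at 0.526, B at 0.816 and C at 0.646. On this log2 scale all 3 replicates were thus nearer to CEBPA-first, A only just. In summed CPM of the members, A was at 6807, nearer to the CSF3R-only samples (4975 to 5676) than to the CEBPA-first samples (8325 to 8958). Taken gene by gene, the position was over 0.5 in 43 members and ranged from 0.28 for Cdc25b and 0.45 for Ect2 to 0.95 for Ccnb2, 0.97 for Cenpa and 0.98 for Nusap1. The difference of CSF3R-first from the midpoint of the other groups was tested in the same fit. With edgeR no member was called, 13 had an unadjusted p under 0.05, all on the CEBPA-first side of the midpoint or, for Cdc25b, the CSF3R-only side, and DESeq2 called 2, Nusap1 and Cenpa. Of all tested genes, 9.78% were higher and 5.68% lower than the midpoint at an unadjusted p under 0.05, and 2.59% were called higher and 0.962% lower than the midpoint. The median difference over the members was 0.12. Other edgeR settings called up to 3 members.

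Replicates within a group shifted together across the members. CSF3R-first B was the highest of its group in 42 members and CSF3R-first A the lowest in 40. CSF3R-only B was the highest of its group in 37 members and CSF3R-only A the lowest in 41. In CEBPA-first, B was the highest in 29 and C the lowest in 28. The 45 genes of a library are thus not independent measurements of that library.

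Neutrophil RNA moved in the opposite direction. All 20 genes of a neutrophil maturation list were called lower in CEBPA-first against CSF3R-only, with a median of -3.32, beside 36.6% of all tested genes. In CSF3R-first against CSF3R-only 19 were called lower, with a median of -1.28, beside 21.1%. The sum of their levels was 29795 to 36974 CPM in the CSF3R-only samples. It was 15923 to 27787 CPM in the CSF3R-first samples and 6845 to 9103 CPM in the CEBPA-first samples. CSF3R-only A and CSF3R-first A, the samples with the lowest mitotic levels, had the highest neutrophil sums of their groups. CEBPA-first was less uniform. There C had the lowest mitotic mean log2 CPM (7.296) and the highest sum, while A had the highest neutrophil mean log2 CPM (5.22) with a mitotic mean of 7.373. D had the lowest neutrophil sum with a mitotic mean of 7.302. Without CSF3R-only A the members' median in CEBPA-first against CSF3R-only was 0.66, and without CSF3R-first A the median in CSF3R-first against CSF3R-only was 0.51. The part of neutrophil content in the mitotic differences was not tested.

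Lists for other cell types were read in the same way. Of all tested genes, 35.4% were called higher and 36.6% lower in CEBPA-first against CSF3R-only, and 21.6% and 21.1% in CSF3R-first against CSF3R-only. Of 15 monocyte and macrophage genes, 11 were called lower and 3 higher in CEBPA-first against CSF3R-only, and in the order CSF3R-only, then CSF3R-first, then CEBPA-first their sums were 2878 to 3661, 1546 to 2664 and 770 to 1121 CPM. All 11 megakaryocyte and platelet genes were called lower in both groups against CSF3R-only, with sums in that order of 1207 to 1588, 413 to 672 and 128 to 174 CPM. Of 10 erythroid genes, 9 were called lower in CEBPA-first and none in CSF3R-first, with sums of 294 to 438, 127 to 421 and 31.6 to 45.4 CPM. Mast cell and basophil genes summed to 1681 to 2612, 1079 to 1335 and 1229 to 1661 CPM, with 5 of 9 tested genes called lower and 1 higher in CEBPA-first against CSF3R-only, and 8 lower and 0 higher in CSF3R-first. Of 11 stem and progenitor genes, 5 were called higher and 5 lower in CEBPA-first against CSF3R-only, and 2 higher and 5 lower in CSF3R-first against CSF3R-only. Its sums, which a few abundant genes carry, were 1404 to 1629, 988 to 1141 and 796 to 832 CPM, while its mean log2 CPM was 4.46 to 4.70, 4.63 to 4.72 and 4.67 to 4.77. Of 15 B, T and NK cell genes 5 passed the filter, of which 3 were called higher and 2 lower in CEBPA-first against CSF3R-only. Their list summed to 5.53 to 7.13, 5.68 to 7.14 and 10.7 to 11.7 CPM, highest in CEBPA-first, and Cd3e, Cd8a and Ncr1 were at 0 counts in every sample. The part of any of these cell types in the mitotic differences was not tested.

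**Figure D5:**
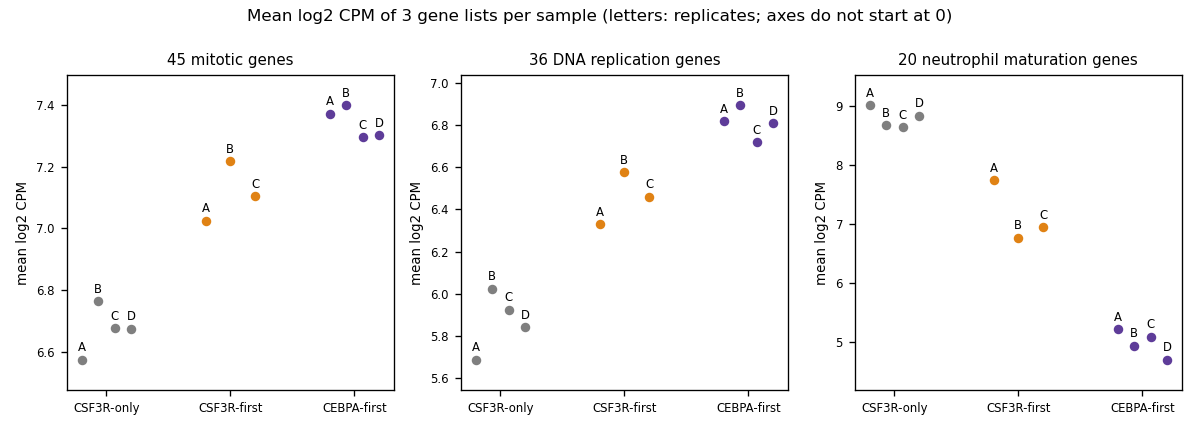
Mean log2 CPM per sample (points, letters for replicates) of the 45 members, 36 DNA replication genes and 20 neutrophil maturation genes in the 3 groups; the axes do not start at 0. The first 2 lists rise from CSF3R-only to CEBPA-first while the third falls, and CSF3R-only A and CSF3R-first A are lowest in the first 2 and highest in the third.

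Other genes of mitosis were read from a list of 113, all tested. In CEBPA-first against CSF3R-only, 103 were called higher and 4 lower, with a median of 0.66. Of all tested genes, 35.4% were called higher in that comparison, 21.6% in CSF3R-first against CSF3R-only and 24.0% in CEBPA-first against CSF3R-first. In CSF3R-first against CSF3R-only, 95 were called higher and 2 lower (median 0.43), and in CEBPA-first against CSF3R-first 64 were called higher and 2 lower (median 0.22). These medians lay within 0.06 of those of the members. The 36 genes of DNA replication act in S phase, when DNA is copied. All 36 were called higher in both comparisons with CSF3R-only, with medians of 0.99 and 0.57. In CEBPA-first 14 of them were called with an absolute log2 fold change over 1, beside 1268 of the 15703 tested genes called higher by that much. In CEBPA-first against CSF3R-first, 30 of the 36 were called higher, with a median of 0.35.

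Ncapd3, a subunit of condensin II, rose most among the other mitotic genes. It was at 101, 104, 103 and 108 CPM in CSF3R-only A to D, 263, 245 and 241 CPM in CSF3R-first A to C, and 309, 290.3, 289 and 255 CPM in CEBPA-first A to D. Every CSF3R-first sample was above 2 times the CSF3R-only mean, and CSF3R-first and CEBPA-first overlapped. Ncapd3 rose by 1.46 ± 0.07 in CEBPA-first and 1.26 ± 0.07 in CSF3R-first, and it was called above the midpoint by 0.53 (edgeR adjusted p = 3.86e-04). The ratio of Ncapd3 to Ncapd2 counts, the condensin II and condensin I subunits of the same type, was 0.65, 0.65, 0.61 and 0.66 in CSF3R-only A to D, 1.34, 1.09 and 1.14 in CSF3R-first A to C, and 1.25, 1.08, 1.14 and 1.06 in CEBPA-first A to D. It was below 1 in CSF3R-only and above 1 in every sample of the other groups, as a description chosen after the values were seen.

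Wee1, the kinase that holds CDK1 inactive, was at 39.2, 46.4, 44.1 and 45.7 CPM in CSF3R-only A to D, 58, 74.3 and 65.9 CPM in CSF3R-first A to C, and 94, 102, 89.5 and 93.4 CPM in CEBPA-first A to D. Its groups did not overlap, and it rose by 1.11 ± 0.08 in CEBPA-first and 0.59 ± 0.09 in CSF3R-first. Haus6, of the augmin complex that branches spindle microtubules, rose by 1.05 ± 0.09 and 0.64 ± 0.10. Haus8, of the same complex, was at 81.6, 78.2, 68.8 and 72.5 CPM in CSF3R-only A to D, 80.5, 67.6 and 67.2 CPM in CSF3R-first A to C, and 53, 50.4, 50.3 and 46.9 CPM in CEBPA-first A to D. CSF3R-only and CSF3R-first overlapped, and CEBPA-first was below both. Haus8 fell by 0.59 in CEBPA-first against CSF3R-only (SE 0.08), and in CSF3R-first the log2 fold change was -0.07 ± 0.08 (adjusted p = 0.528). Pttg1, or securin, which keeps separase inactive until anaphase, fell by 0.64 in CEBPA-first (SE 0.08) and by 0.29 in CSF3R-first (SE 0.08, adjusted p = 0.016). Psrc1, a spindle protein with a mean of 12.6 CPM in CSF3R-only, had log2 fold changes of -0.39 ± 0.14 (adjusted p = 0.0257) and -0.34 ± 0.15 (adjusted p = 0.0907) in CEBPA-first and CSF3R-first.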

How the data were processed

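RNA-seq was analysed in 11 samples of transduced lineage-negative mouse bone marrow. The authors prepared libraries with a low-input SMARTer kit, trimmed reads with Trimmomatic, aligned them with STAR (per the submitters' processing notes to mm10) and deposited raw read counts per Ensembl gene. The counting tool, its annotation and its use of strand are not given in the sources used here, so reads of overlapping or near-identical genes cannot be assigned with certainty. Totals were 47905747 to 72268346 counts per sample.

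Of 51912 genes, 15703 passed edgeR's filterByExpr. One quasi-likelihood fit (edgeR 4.0.16, R 4.3.3) held the 3 groups, with TMM factors and no covariates. P-values were adjusted by Benjamini-Hochberg over all tested genes. Standard errors were derived from the F statistic. Log2 CPM used a prior count of 2. All members were named. Of 113 other mitotic genes, the 3 highest and 3 lowest called, non-overlapping log2 fold changes in CEBPA-first against CSF3R-only were named. Members and lists were chosen with earlier results of these data known. Promoter words were counted in RefSeq windows, and near-identical transcripts were found with BLAST 2.17.0. Scripts were tested on simulated data. Alternatives were DESeq2 1.42.0, other scaling and filters, the compared groups alone, a replicate block, a fold threshold, and leaving out each sample.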

Additional observations from a re-analysis of the deposited data

Results flagged for a closer look

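In 102 groups of 4 samples, one per gene and group, the gap between the most extreme sample and the nearest other was compared with the group's range (Dixon's test at 95%), and 4 exceeded the limit where chance gives about 5.1. Cdca8 in CEBPA-first C was at 156.11 CPM, below 167.55 to 169.48 CPM in the other CEBPA-first samples. Ndc80 in CSF3R-only B was at 55.768 CPM, above 48.901 to 49.41 CPM in the other CSF3R-only samples. Smc2 in CSF3R-only A was at 148.12 CPM, below 167.84 to 169.41 CPM in the others. Psrc1 in CSF3R-only C was at 14.795 CPM, above 11.684 to 12.036 CPM in the others.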

How the results depend on the processing

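Every member kept its call and direction in CEBPA-first against CSF3R-only under all alternatives that used adjusted p alone. With an absolute log2 fold change over 1 as well, 2 members were called higher and 0 lower there, and 0 and 0 in each of the comparisons with CSF3R-first. In CSF3R-first against CSF3R-only, 7 gene results lost their call. The count called lower was 0 with no filter on low counts, and leaving out single samples gave 43 to 44 higher and 0 to 1 lower. In CEBPA-first against CSF3R-first, leaving out single samples gave 18 (without CSF3R-first A) to 33 members called higher, and 56 gene results lost and 16 gained a call. Against the midpoint, 2 members were called higher with DESeq2, 1 with upper quartile factors, 2 with library size only, 1 with at least 10 counts in every sample, and 0 to 3 when single samples were left out (3 without CSF3R-only B). The cause was not tested.

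Direction turned only for small differences. In CEBPA-first against CSF3R-first, Nusap1 was at -0.00076 with upper quartile factors. With at least 10 counts in every sample Ccnb2 was at -0.013, Cenpa at -0.014 and Nusap1 at -0.017. With only the compared groups they were at -0.020, -0.020 and -0.024. Leaving out single samples gave Ccnb2 lows of -0.028 and -0.016, Cenpa lows of -0.0020 and -0.00019, and Nusap1 lows of -0.028 and -0.013, with highs of 0.043, 0.037 and 0.036. Against the midpoint, leaving out single samples gave Ttk -0.017 to 0.13, Nuf2 -0.044 to 0.090, Tpx2 -0.019 to 0.14, Kif11 -0.027 to 0.14, Kif15 -0.066 to 0.075, Kif20b -0.061 to 0.11 and Ncapg -0.0062 to 0.17, each lowest without CSF3R-first B. Kif15 was at -0.0075 without CSF3R-only A.

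With library size only, the median of all tested genes in CEBPA-first against CSF3R-only was 0.13 and that of the members 0.84. Deviations from the group means of same-lettered samples had correlations of -0.107 to 0.363 over 10 pairs, with a mean of 0.156 and 7 of 10 over 0.1, beside a mean of -0.0526 over 30 pairs with different letters. Not every pair was over 0.1, the own letter was the best match in 12 of 20 cases, and no label ties the letters to a shared animal or day, so the samples were not treated as paired, although a partial sharing by letter is not excluded. With a replicate block 44 members were higher and 1 lower in CEBPA-first and in CSF3R-first against CSF3R-only, and 33 higher in CEBPA-first against CSF3R-first. The position of CSF3R-first was 0.586 to 0.731 when single samples were left out, and 0.588 after subtracting the mean of all tested genes, a scale chosen after seeing the data. Each member had at least 844 counts in every sample, and groups held 3 to 4 samples. What limits the precision was not tested.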
